A study of Danio rerio with 20 samples.

Results

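Raraa is one of the zebrafish retinoic acid receptors. The regions described here are its called gastrula peaks, termed sites, that overlapped no called Raraa peak at later stages. They were chosen from deposited ChIP-seq peak lists of whole wild-type embryos. A region was taken when a peak of the first Raraa control library at 80% epiboly overlapped, by at least 1 bp, a peak of the second such library and no peak in any of the 4 Raraa control libraries at 5 somites or 24 hours post-fertilization (hpf). On the 25 chromosomes this kept 1539 of 23920 starting peaks (6.43%), or 18.9% of the 8159 starting peaks that were replicated in the second gastrula library. The 6 libraries named in this rule fixed the membership, so their values are given as description with no test.

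Retinoic acid receptors are nuclear receptors that sit on DNA as partners of retinoid X receptors, and binding of all-trans retinoic acid (atRA) exchanges their corepressors for coactivators. In the vertebrate gastrula, retinoic acid made in the trunk mesoderm patterns the hindbrain and anterior spinal cord. Hoxb1b is a homeodomain factor of the early hindbrain whose gene responds to retinoic acid, Meis2b belongs to a family of homeodomain cofactors that bind DNA with Hox and Pbx proteins, and Sox3 is a SoxB1 factor of the early neural plate.

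The study profiled these 4 factors with 2 libraries in each of 10 groups. At 80% epiboly each antibody was used on control embryos and on embryos given 0.1 µM atRA from 30% epiboly, and the Raraa antibody was used in addition on control embryos of 5 somites and of 24 hpf. All embryos were wild-type, with the strain not given in the sources used here, and the chromatin came from whole embryos sheared to about 300 bp. The treatment text of the labels names 80% epiboly as the collection point even for the older samples, so stage was read from the titles. In chromatin of whole embryos, fewer cells with a bound site and weaker binding in each cell cannot be told apart.

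The lists differed widely in length and depth. The first Raraa gastrula control held 23920 peaks on the 25 chromosomes and the second held 131936. The 4 later Raraa lists held 109146 to 116351, the Raraa atRA lists 254915 and 59938, and the 12 lists of the other antibodies 28388 to 135299. The 0.001 quantile of the local background recovered from the peak values served as an index of depth, in fragments covering a base. This index was 0.394 and 0.927 in the Raraa gastrula controls, 0.393 to 0.686 in the later lists, and 2.17 and 0.606 with atRA.

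The sites were peaks of middling strength in the 2 gastrula control lists and were weaker than the sites that stayed. In the first gastrula control their fold enrichment over the local background, the authors' own value at each summit, had a median of 4.86 with quartiles of 4.30 and 5.41 and a range of 3.01 to 15.1. In the second it had a median of 4.63 with quartiles of 4.00 and 5.19 and a range of 2.68 to 10.4. The summits were covered by a median of 6 fragments in the first library and 9 in the second. The 2320 replicated sites that held a peak in all 4 later libraries, called kept sites here, had median folds of 5.74 and 6.23 and median summit coverage of 11 and 20 fragments. Ranked by the authors' p within each list, the median member stood 52.0% and 48.3% of the way down the 2 lists. The median kept site stood at 9.25% and 1.70%. Over all peaks of the 2 lists the median folds were 4.86 and 4.65, near those of the members. The minimum peak width that occurs in the first list, 138 bp, was the width of 422 members (27.4%), against 6.64% of kept sites. It was also the width of 26.3% of all starting peaks, close to the share of members, and of 17.2% of all replicated sites.

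**Figure D1:**
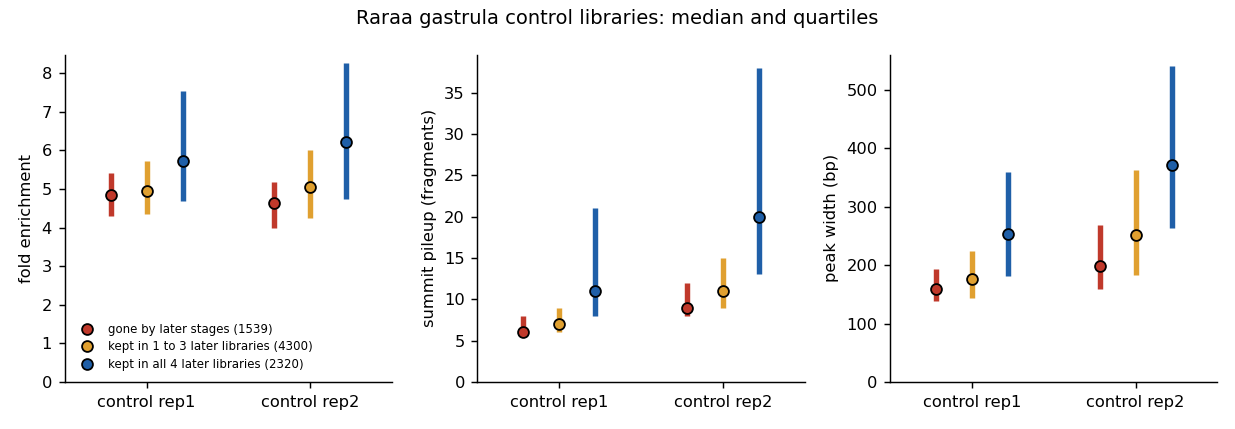
Fold enrichment (left), summit coverage in fragments (middle) and peak width in bp (right) of Raraa peaks in the 2 gastrula control libraries, where points are medians and bars run between the quartiles over regions. Sites gone by later stages had the lowest medians in all 3 panels, with folds of 4.86 and 4.63 against 5.74 and 6.23 in kept sites. Sites kept in 1 to 3 later libraries lay between.

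Replication between the gastrula controls went along with presence later on. Of the 11717 starting peaks with no later peak, 13.1% overlapped a peak of the second gastrula control, against 31.4%, 51.7%, 70.2% and 90.2% of those with a peak in 1, 2, 3 and 4 later libraries. For scale, the intervals of the second list, widened by the median starting peak, covered 3.69% of the chromosomes. Some members may therefore overlap a peak of the second list by position alone, and their number was not estimated. The 2 gastrula summits of a member lay a median of 81 bp apart, against 55 bp at kept sites. They lay within 50 bp of each other at 521 members (33.9%) and at 1109 kept sites (47.8%).

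The edge of the rule was crowded. The overlap with the second gastrula peak ranged down to 1 bp, with a median of 117 bp and 99 members under 20 bp. On the other side, 175 members lay under 50 bp from a later Raraa peak, 2 of them abutting it, and 687 (44.6%) lay within 500 bp. The median gap to the nearest later peak was 667 bp, and 69 members had none within 5000 bp. These distances were not measured for other starting peaks or for random positions. They therefore do not show whether members lay unusually close to later peaks. Just outside the rule were 1581 replicated sites with a peak in exactly 1 later library, whose later peak had a median fold of 4.75. The overlap was under 20 bp at 91 of them. "Gone" therefore means only that no called peak overlapped the interval.

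The coverage expected at the later depths depended on the gastrula library it was scaled from. When the summit coverage of each member in the second gastrula control was scaled to the background of a later library, it reached the coverage exceeded by all but the weakest 10% of that library's own peaks at 66.5% and 49.1% of members for the 5-somite libraries and at 95.8% and 49.1% for the 24 hpf libraries. Scaled from the first gastrula control, it reached that level at 98.6% to 100% of members. Members had to hold a peak in both gastrula controls, which favours high coverage there. The scaled shares can therefore be too high. How much of the absence came from depth was not tested.

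With atRA, most of the sites were not found again in both Raraa libraries. A Raraa peak overlapped 50.6% of the members in the first atRA library and 15.5% in the second, against 80.9% and 50.5% of all replicated sites. The mean was 33.1% ± 24.8 (SD, n = 2), so the 2 libraries differed by more than the mean itself. Without the second library the share was 50.6%, and without the first it was 15.5%. The first atRA list was the longest and deepest of all 20, and its part in the result was not tested. With each list outside the rule held to its 28000 strongest peaks, the shares were 16.0% and 10.1%.

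Site by site, 198 members held a Raraa peak in both atRA libraries (12.9%, against 48.9% of all replicated sites), 581 only in the first, 41 only in the second and 719 in neither. Those 719 amounted to 46.7% of members, where 17.5% of all replicated sites had no Raraa peak in either atRA library. At kept sites the atRA libraries held a peak at 98.8% and 86.2%, and 23 of 2320 had none in either. Because the rule requires a peak in both control libraries, no test of atRA against control was made for Raraa.

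Hoxb1b was found at few of the sites in control embryos and at more of them with atRA. A Hoxb1b peak overlapped 8.25% and 12.2% of the members in the control libraries (26.9% and 28.2% of all replicated sites) and 27.9% and 24.9% in the atRA libraries (60.9% and 57.2%). The means were 10.2% ± 2.76 and 26.4% ± 2.16 (SD, n = 2 each), a difference of 16.2 percentage points and a ratio of 2.59, and the groups did not overlap. Both libraries held a peak at 31 members in control embryos (2.01%, against 13.7% of all replicated sites) and at 262 with atRA (17.0%, against 50%).

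Meis2b had the lowest mean shares of the 3 other factors at these sites, with control libraries that overlapped those of Hoxb1b. Its peaks overlapped 5.59% and 9.68% of members in control libraries (22.4% and 27.5% of all replicated sites) and 15.9% and 13.2% with atRA (42.7% and 36.4%). The means were 7.63% ± 2.89 and 14.6% ± 1.93 (SD, n = 2 each), a difference of 6.92 points and a ratio of 1.91, again with no overlap between the groups. Both control libraries held a peak at 35 members (2.27%, against 13% of all replicated sites) and both atRA libraries at 117 (7.60%, against 29.1%).

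Sox3 had the highest shares, and its lists were also the longest of the 3. With each list held to its 28000 strongest peaks, Sox3 with atRA overlapped 14.98% of members and Hoxb1b with atRA 15.2%, so the order did not hold with atRA. In control libraries it held, with Hoxb1b at 6.73%, Meis2b at 5.82% and Sox3 at 14.2%. Over the whole lists its peaks overlapped 23.0% and 31.1% of members in control libraries (52.3% and 59.6% of all replicated sites) and 35.9% and 33.4% with atRA (67.8% and 67%). The means were 27.1% ± 5.74 and 34.7% ± 1.79 (SD, n = 2 each), a difference of 7.60 points and a ratio of 1.28. The lower atRA library was 2.27 points above the higher control library. The difference was 3.54 points without the first control library and 11.7 points without the second. Both control libraries held a peak at 248 members (16.1%, against 44.2% of all replicated sites) and both atRA libraries at 386 (25.1%, against 59.8%).

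**Figure D2:**
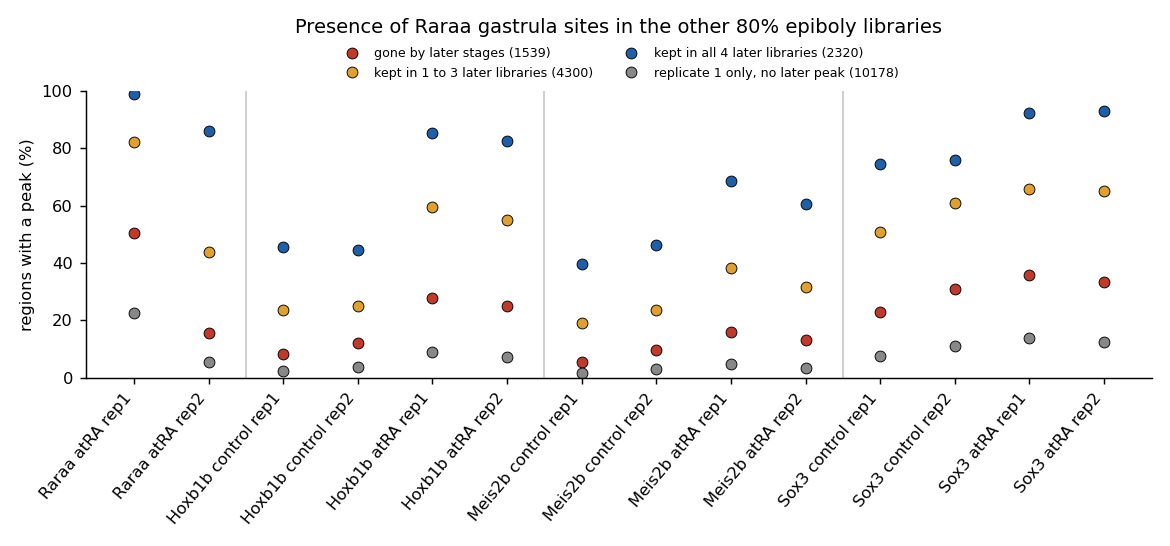
Percent of regions with an overlapping peak (vertical axis) in each of the 14 libraries at 80% epiboly that the rule did not use (horizontal axis), with 1 point per library and class of region. Members lay below the sites kept later in every library, from 5.59% in the first Meis2b control to 50.6% in the first Raraa atRA library, and above the unreplicated starting peaks with no later peak.

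Over the 3 antibodies together, the share of members with a peak rose with atRA from 15.0% to 25.2%, by 10.2 points. The exact permutation test over libraries, two-sided with treatment labels exchanged within each antibody, gave p = 0.00926, the smallest that all such exchanges allow, and an adjusted p of 0.0139 over the 3 tests made. Within 1 antibody, 2 libraries against 2 cannot give a p below 0.333, so the antibodies were not tested singly. The labels do not say whether the 2 libraries of a group came from separate clutches, so the p-values measure only the spread between libraries, which may be technical. The p-values also treat the 3 antibodies as independent, although all were scored on the same regions. Whether the antibodies shared embryos or chromatin is not known here. The same difference was 19.2 points over all replicated sites and 25.9 points at kept sites.

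The atRA lists of these antibodies were also longer on average than their controls. Hoxb1b lists went from 42278 and 58750 peaks to 86866 and 71640, Meis2b lists from 28388 and 49654 to 58690 and 43644, and Sox3 lists from 103127 and 105524 to 135299 and 132311. With every list held to its 28000 strongest peaks, the mean difference was 4.67 points (p = 0.0278 by the same exact permutation test). It was then 8.48 points for Hoxb1b, 4.71 for Meis2b and 0.812 for Sox3, so that the Sox3 value was less than the gap of 3.12 points between its 2 control libraries.

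Sites that held the factor in both atRA libraries and in neither control numbered 177 for Hoxb1b (11.5% of members, against 21.2% of all replicated sites). They numbered 66 for Meis2b (4.29%, against 10.4%) and 70 for Sox3 (4.55%, against 5.79%). The opposite pattern, both controls and neither atRA library, was seen at 6 members for Hoxb1b (0.390%, against 0.821%), 5 for Meis2b (0.325%, against 1.35%) and 11 for Sox3 (0.715%, against 0.772%). For all 3 factors the first pattern outnumbered the second, and for none did the members' share exceed the share over all replicated sites.

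Members and kept sites differed in every group that the rule did not use. The share with a peak was 21.9% for members and 71.0% for kept sites on average over the 7 antibody and treatment groups. The difference was -49.1 points. The rule set the classes by Raraa peaks, which also separates weaker from stronger ones. The 7 groups share their regions and 4 antibodies. The comparison is therefore a description with no p. The members were lower in 7 of 7 groups, by 34.9 points for Hoxb1b in control embryos, the smallest difference, and by 59.4 points for Raraa with atRA, the largest. In ratio, kept sites were 5.63 times as often occupied as members by Meis2b in control embryos and 2.67 times by Sox3 with atRA.

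Within tiers of peak strength in the first gastrula control, members also had lower shares than kept sites. Replicated sites were divided into 3 equal tiers by the authors' -log10 p in the first gastrula control, and 670, 639 and 230 members fell in the weakest, middle and strongest tier, against 368, 493 and 1459 kept sites. In the weakest tier Raraa peaks with atRA covered 30.7% of members and 85.5% of kept sites on average over 2 libraries, and in the strongest 42.6% and 96.1%. Averaged over tiers with equal weight, the difference over the 7 groups was -44.2 points. The tiers do not equalize strength: the strongest ran from 8.01 to 240.3 in -log10 p while members reached 30.7, and strength in the second gastrula control was not used. The part of peak strength in the gap was not tested. Among members, Hoxb1b with atRA covered 24.5%, 24.5% and 37.4% of the 3 tiers, while Hoxb1b in control embryos covered 10.07%, 10.02% and 11.09%. The other control groups were higher in the strongest tier, Meis2b at 6.79%, 6.96% and 11.96% and Sox3 at 25.7%, 24.9% and 37.2%.

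**Figure D3:**
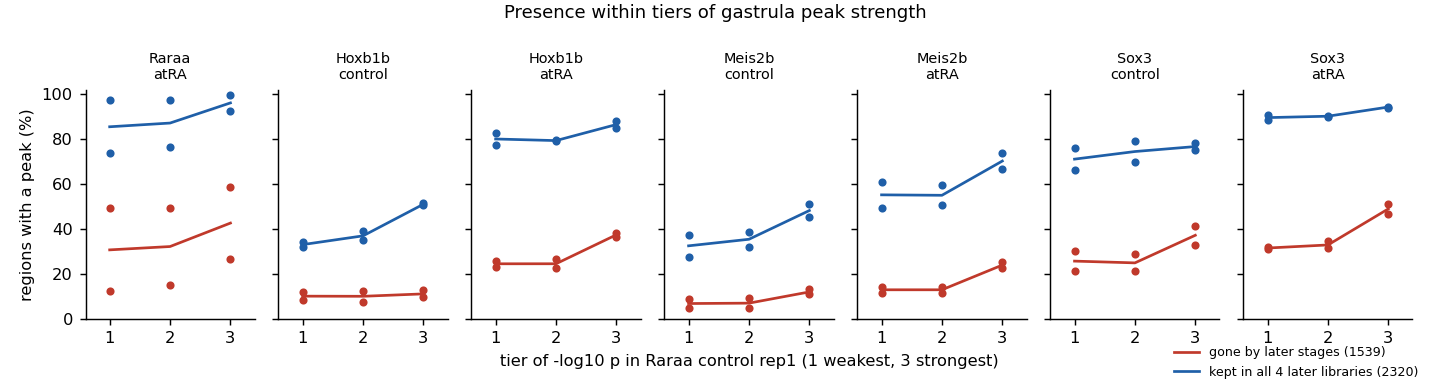
Percent of regions with a peak (vertical axis) by tier of Raraa peak strength in the first gastrula control (horizontal axis, 1 weakest, 3 strongest), 1 panel per antibody and treatment, with a point per library and a line through the mean of 2. The members lay below the kept sites in every tier and panel, at 30.7% against 85.5% for Raraa with atRA in the weakest tier.

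From control to atRA, over the whole lists, the share with a peak rose less at members than at kept sites in percentage points and not in ratio. The difference between the 2 rises was -15.7 points (p = 0.00926, adjusted p = 0.0139, exact permutation test over libraries, two-sided, the smallest p possible). Control shares were 15.0% at members and 54.5% at kept sites, so equal ratios would already give a negative difference in points. This p therefore cannot decide whether the classes responded differently. A log2 ratio scale was chosen after the values were seen. On that scale the difference had the opposite sign, 0.32 in favour of members, with p = 0.0648 by the same exact permutation test. The ratios at kept sites were 1.86 for Hoxb1b, 1.503 for Meis2b and 1.23 for Sox3. Sox3 started from 75.3% there, which left its ratio little room to rise. With 28000 peaks per list the difference was -18.2 points. Sox3 then overlapped 12.6% and 15.7% of members in control and 15.1% and 14.9% with atRA. At kept sites it overlapped 56.9% and 61.5%, then 74.4% and 75.4%. Its ratio was thus higher at kept sites, while those of Hoxb1b and Meis2b stayed higher at members.

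Between the extremes, presence was higher at each step in the number of later libraries that held a Raraa peak. For Hoxb1b with atRA the mean of 2 libraries was 26.4% of members and 41.9%, 60.1%, 73.0% and 83.9% of sites with a peak in 1, 2, 3 and 4 later libraries. For Meis2b in control embryos it was 7.63%, 14.5%, 21.5%, 29.8% and 43.0%. Median Raraa fold in the gastrula controls was also higher at sites with more later peaks, as given above, so this is a description with no test.

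**Figure D4:**
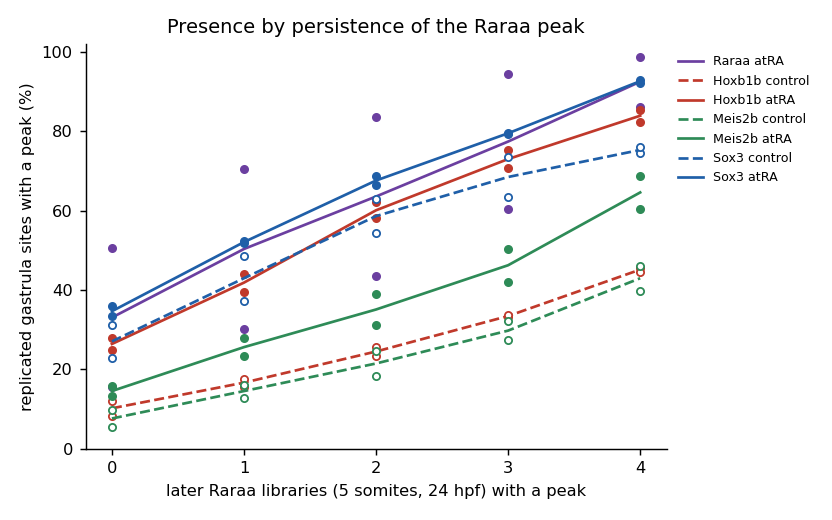
Percent of replicated gastrula sites with a peak (vertical axis) by the number of later Raraa libraries with a peak (horizontal axis, 0 being the members), with a point per library and lines through the mean of 2. Every line climbs from 0 to 4, Hoxb1b with atRA from 26.4% to 83.9%.

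Most members were shared with few other libraries. No peak in any of the 12 libraries of Hoxb1b, Meis2b and Sox3 was found at 456 members (29.6%, against 10.2% of all replicated sites), and 238 had a peak in at least 6 of the 12 (15.5%, against 51.1%). Adding the 2 Raraa atRA libraries, 312 members had no peak in any of the 14 (20.3%, against 6.02%) and 6 had one in all 14 (0.390%, against 4.36%). At kept sites the corresponding counts were 0 with none and 295 with all 14. In the 6 control libraries of the other antibodies, 754 members (49.0%, against 21.6% of all replicated sites) had no peak.

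**Figure D5:**
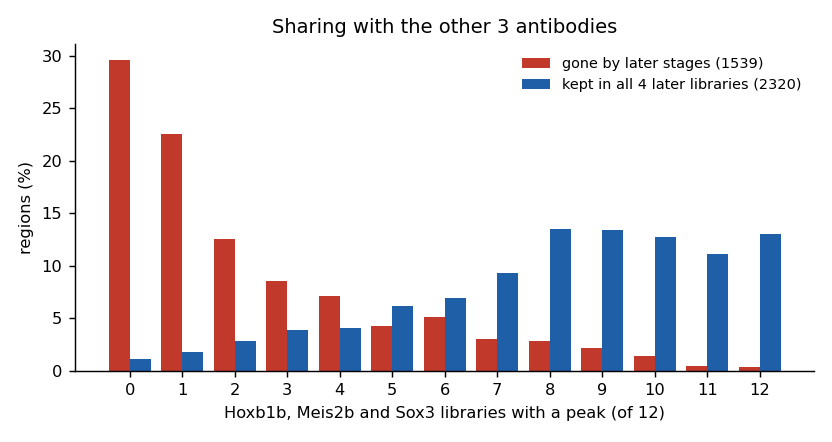
Percent of regions (vertical axis) by how many of the 12 Hoxb1b, Meis2b and Sox3 libraries held a peak (horizontal axis), for members and kept sites. Members pile up at 0, with 29.6%, and 80.2% of kept sites lie at 6 or more.

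Among members, presence of Raraa with atRA and presence of the other factors went together. Among the 198 members with Raraa in both atRA libraries, the other 3 factors covered 34.0% on average over their 6 control libraries and 64.6% over their 6 atRA libraries. Among the 622 with Raraa in 1 atRA library the averages were 15.5% and 26.5%, and among the 719 with Raraa in neither 9.23% and 13.3%. Hoxb1b with atRA was at 71.2% and 69.7% of the first set, and at 12.9% and 11.7% of the last. These shares were not computed for all replicated sites. They therefore do not show whether the link is particular to members. A Raraa peak in at least 1 atRA library and no other factor was found at 144 members (9.36%, against 4.2% of all replicated sites). Some other factor without Raraa in either atRA library was found at 407 (26.4%, against 11.5%). More members than replicated sites lacked Raraa in both atRA libraries to begin with (46.7% against 17.5%). Among sites lacking it, another factor was found at 407 of 719 members and at 940 of 1431 replicated sites, a lower proportion at members.

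Shares were higher at members near a later Raraa peak in all 7 groups that the rule did not use. The 687 members with a later Raraa peak within 500 bp held Raraa with atRA at 37.2% on average, and the 852 without one at 29.8%. For Hoxb1b with atRA the values were 29.6% and 23.8%, and for Sox3 in control embryos 29.5% and 25.1%. Members whose 2 gastrula summits lay within 50 bp held Raraa with atRA at 35.0%, and the others at 32.1%. Hoxb1b in control embryos went the other way, at 9.88% and 10.4%, while the other 5 groups were higher where summits lay close.

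Single regions show the range of patterns. Coordinates are those of danRer10 (GRCz10), and genes near the regions were not analysed here. Fold depends on the depth of its library, and depth differed widely. A higher or lower fold in another library is therefore no measure of a change in binding. The region with the best mean rank in both gastrula controls was chr9:31439686-31439892, with Raraa folds of 10.1 and 6.96 over 20 and 21 fragments. With atRA it held Raraa in the first library only, with a fold of 7.79. Hoxb1b was absent from both control lists and present with atRA at folds of 7.56 and 11.98. Sox3 was present in all 4 lists at folds of 6.71 to 10.98. Meis2b held a peak only in the second control and the second atRA library, at folds of 4.57 and 4.69. The nearest later Raraa peak lay 1377 bp away.

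The second by rank, chr21:235680-235951, had Raraa folds of 5.61 and 3.51 over 29 and 47 fragments. It held a peak in 4 of the 14 other libraries, among them both Hoxb1b atRA lists at low folds of 2.54 and 2.99. It shared its peak of the second gastrula control with a neighbouring member, and 8 members in 4 pairs did so in all. The third, chr3:8631281-8631438, was also the member with the best ranked Hoxb1b peaks among those with Hoxb1b in both atRA lists and neither control. Its Raraa folds were 5.93 and 5.71 in the gastrula controls and 7.42 and 7.28 with atRA, and its Hoxb1b folds with atRA were 8.31 and 9.82 over 93 and 88 fragments. Another member, chr3:8631557-8632199, lay 118 bases away under the same peak of the second Raraa gastrula control, and it did hold a Hoxb1b peak in the first control library. Meis2b and Sox3 were present at the named region in control and atRA lists alike, Sox3 at folds of 11.7 and 9.46 in control and 8.57 and 9.76 with atRA.

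The fourth, chr14:32562300-32562481, held a peak in all 14 other gastrula libraries and in none of the 4 later Raraa libraries. Its Raraa folds were 6.401 and 5.328 in control and 6.16 and 6.21 with atRA. Hoxb1b was at 15.3 and 11.7 in control and 9.15 and 9.62 with atRA. Its coverage was 38 and 23 fragments in control and 83 and 58 with atRA, so fold and coverage differed in opposite directions. Meis2b was at 5.20 and 5.65 in control and 9.70 and 10.5 with atRA. Sox3 was at 9.88 and 9.78 in control and 6.99 and 7.10 with atRA. The fifth, chr5:36012776-36013091, held Hoxb1b and Meis2b with atRA only, at folds of 4.38 and 4.06 for Hoxb1b and 7.36 and 7.45 for Meis2b. It lay 83 bp from a later Raraa peak.

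A further pair of members with a peak in all 14 libraries had higher folds for Sox3 than for Raraa in control embryos. At chr8:52168980-52169158 the Raraa control folds were 6.35 and 6.41, those of Hoxb1b 12.4 and 13.4, those of Meis2b 10.97 and 12.92 and those of Sox3 17.2 and 14.2. At chr17:31131015-31131264 the Raraa control folds were 7.89 and 5.38, and those of Sox3 21.1 and 16.0. With atRA, Raraa was at 9.11 and 9.05 in the first region and 10.8 and 8.06 in the second. The nearest later Raraa peaks lay 2817 and 1942 bp away.

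The best ranked members with no Raraa peak in either atRA library held few or no peaks of the other factors. At chr5:42495518-42495697 the Raraa control folds were 6.94 and 6.23, and the only other peak was in the second Meis2b control at a fold of 3.95. At chr5:41489157-41489294, with control folds of 5.97 and 7.34, none of the 14 other libraries held a peak. At chr7:49607153-49607304, with control folds of 5.75 and 7.18, the second Sox3 atRA library held the only other peak at a fold of 6.45. These 3 regions lay 57, 72 and 116 bp from a later Raraa peak.

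Of the members with none of the other factors, chr13:51375842-51376116 had Raraa folds of 6.96 and 5.38 in control and 9.66 over 47 fragments in the first atRA library, with no peak in the second. At chr18:50864725-50864866 the folds were 5.63 and 4.71 in control and 3.34 in the first atRA library. The third by rank was chr5:41489157-41489294, described above. None of the 3 held Raraa in the second, shallower atRA library.

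For Meis2b, the best ranked member with peaks in both atRA lists and neither control was chr23:24227181-24227318. Its Raraa folds were low in control, 4.51 and 3.73, and 6.57 and 7.28 with atRA. Meis2b was at 13.3 and 13.04 with atRA and Hoxb1b at 11.9 and 11.5, both without a control peak. A later Raraa peak lay 18 bp away.

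For Sox3 the corresponding region was chr3:23764068-23764271. Raraa was at 6.06 and 7.56 in control and at 10.6 and 10.7 with atRA, over 99 and 58 fragments. Sox3 was at 12.1 and 9.91 with atRA and Hoxb1b at 7.04 and 8.39, while no Meis2b library held a peak. A later Raraa peak lay 31 bp away.

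The sites were scattered along the genome. Only 46 members (2.99%) had another member within 10 kb, with a median gap of 267 kb, against 701 kept sites (30.2%) and 49.3 kb. A kept site lay within 10 kb of 86 members (5.59%). There are more kept sites than members, and this difference in number was not corrected for. Members made up 14.3% of the replicated sites on chromosome 10, the lowest share, and 25.7% on chromosome 5, the highest, of its 498 replicated sites. Chromosome 7 held 124 of 577 (21.5%).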

How the data were processed

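ChIP-seq peak lists of 20 zebrafish libraries were analysed, 1 list per library, in groups of 2 taken from the labels. Per the labels' protocols, embryos were fixed in 1% paraformaldehyde, and libraries were made by tagging the immunoprecipitated chromatin with the Tn5 transposase. The submitters' processing notes name Bowtie, SAMtools, MACS2 and the build GRCz10/danRer10; versions, use of an input control and handling of duplicates are not given in the sources used here. Each deposited peak carries 3 values set by the authors, namely fold enrichment (a ratio to the background around it), −log10 p and −log10 q, with the offset of its summit; the largest q in any list lay under 0.05. Names within a list share 1 prefix, so peaks were called per library. Both Sox3 control lists carry the number 2 in these names, and the labels' numbers were used.

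Peaks on the 25 chromosomes were compared by overlap of at least 1 bp. Read totals are unknown. Summit coverage and background were recovered from fold and p, taking the fold as (k + 1)/(b + 1) for k fragments over background b, and were solved for 100% of peaks to within 0.002 in −log10 p. The 0.001 quantile of background served as depth index. Shares are over regions, and tests are over libraries: exact permutation tests, two-sided, with Benjamini-Hochberg adjustment over 3 tests, checked on simulated data. The planned test of members against kept sites is counted in that adjustment, but its p is not given, because the rule itself separates these classes by peak strength. Regions were named by fixed rules on mean rank of −log10 p: the 5 best in both gastrula controls, the 3 best each with a peak in all 14 other gastrula libraries, with none in Raraa atRA, and with none in the 12 libraries of the other antibodies, and the best by atRA rank for each antibody among sites with peaks in both atRA lists and neither control. Members and rules were chosen with earlier results of these data known. The planned listing of genes and motifs near the regions was not run, since no genome of this build was used here. Alternatives covered overlap, the q threshold, the starting list, the gap to later peaks, summits, chromosome 4, single libraries, peak strength, list length, antibody and scale. Python 3.11.15, NumPy 2.4.6, pandas 2.3.3, SciPy 1.17.1 and Matplotlib 3.10.9 were used.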

Additional observations from a re-analysis of the deposited data

Results flagged for a closer look

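Sequences outside the 25 chromosomes were left out of the comparisons. They held 629 peaks of the first Raraa gastrula control, of which 344 overlapped a peak of the second and 47 also lacked a peak in all 4 later libraries. The presence of those 47 with atRA or with the other antibodies was not analysed. Groups of 2 libraries are too small for a check on single outlying libraries.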

How the results depend on the processing

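The number of members fell to 852 when no later peak was allowed within 500 bp, and leaving out 1 library gave 1835 to 11717 members, the latter without the second gastrula control. Leaving out 1 library moved the share with Raraa in atRA embryos between 15.5% and 50.6%. The mean atRA difference then ran from 8.89 to 12.4 points and the difference from kept sites from -50.7 to -42.9 points. The atRA difference at members minus that at kept sites ran from -16.8 to -13.2 points. With Sox3 left out (added after seeing the data), the last 3 were 11.6 points (p = 0.0556), -47.5 points and -18.6 points (p = 0.0556) by exact permutation, with 0.0556 the smallest p that 36 arrangements allow. As log2 ratios (added after seeing the data) the atRA difference at members minus that at kept sites reversed, at 0.32. With 28000 peaks per list (added after seeing the data) the atRA difference was 4.67 points and the share with Raraa 13.1%. Site by site, same-numbered libraries did not deviate together (correlations of -0.0122 to 0.00716 over 8159 sites). Correlations of single peak calls cannot show whether such libraries shared a clutch or batch, so their pairing stays unknown. With the replicate block the values were 10.2 and -15.7 points, both with p = 0.0312 by exact permutation, the smallest of 64 arrangements. Of the 14 named regions, 9 met the rule with overlap of at least 50% of the shorter interval, 9 with the second list as the start, 8 with the 500 bp gap and 6 by summits. The other 115 recomputed main values kept their direction and, where tested, their side of 0.05. Untested ones moved by less than 1.5 times (counts) or 1 SD (shares). That SD was 24.8 for the Raraa share with atRA, so its fall to 22.1% by summits counts as unmoved. By summits the mean atRA difference was 6.98 points. Among the secondary values 28 moved beyond these limits and 232 did not. Many values, main and secondary, could not move, because the library left out did not enter them. The counts of unmoved values are therefore no measure of stability. By summits, Sox3 overlapped 18.8% of members in control and 25.4% with atRA. Hoxb1b with atRA then overlapped 18.6%, Meis2b with atRA 10.3%, and the Hoxb1b difference was 10.4 points. Leaving out a later Raraa library moved some shares up, that of Sox3 with atRA as far as 41.2%.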

Other observations

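In windows of 5 Mb, members were most numerous on chromosome 5 between 25 and 30 Mb, a window singled out after its values were seen. It held 21 members among 38 replicated sites (55.3%), where the next highest count was 14 and the median over 282 windows was 5. The density of all Raraa peaks there, relative to the mean of each list, was 1.19 and 1.16 in the gastrula controls, 1.09 to 1.1 with atRA, and 0.943 to 1.01 in the 4 later libraries. For the other antibodies it was 0.964 to 1.09 (Hoxb1b), 1.00 to 1.19 (Meis2b) and 1.05 to 1.14 (Sox3), so such values were not particular to Raraa. Of the 21 members, 12 and 3 held a Raraa peak in the atRA libraries, where the shares over all members were 50.6% and 15.5%. Hoxb1b was at 0 and 6 of them in control libraries and 7 and 4 with atRA (8.25%, 12.2%, 27.9% and 24.9% over all members). Meis2b was at 1 and 3 in control libraries and 2 and 1 with atRA (5.59%, 9.68%, 15.9% and 13.2%). Sox3 was at 5 and 4 in control libraries and 5 and 5 with atRA (23.0%, 31.1%, 35.9% and 33.4%). On chromosome 3 between 5 and 10 Mb, 13 of 27 replicated sites were members (48.1%).

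Among starting peaks with no later peak, the 10178 that the second gastrula control did not hold were found less often in the other libraries than the members. Raraa with atRA overlapped 22.5% and 5.37% of them, against 50.6% and 15.5% of members. Sox3 overlapped 7.67% to 13.8% over its 4 libraries, Hoxb1b 2.48% to 9.18% and Meis2b 1.68% to 4.95%.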
